A study of Mustela putorius furo and Mus musculus with 4 samples.

Results

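The Hedgehog pathway was described here by 9 of its genes, measured in cultured ferret and mouse astrocytes. They are the cell-surface coreceptors Cdon and Boc, the ligand-binding inhibitor Hhip, the receptor Ptch1, the signal transducer Smo, the cytoplasmic inhibitor Sufu and the transcription factors Gli1, Gli2 and Gli3. The genes were chosen by symbol, without regard to upper or lower case, and all 9 were found among the 13373 gene symbols that the data of both species share. Each had a single value in every library.

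Hedgehog proteins are secreted ligands that bind Ptch1 with the help of the coreceptors Cdon, Boc and Gas1. Without ligand, Ptch1 holds Smo inactive and Sufu restrains the Gli proteins, of which Gli3 acts mainly as a repressor and Gli2 mainly as an activator. Ligand binding lets Smo gather in the primary cilium, and the activated Gli proteins then switch on target genes that include Gli1, Ptch1 and Hhip. In the brain, Sonic hedgehog released by neurons is known to act on astrocytes, and Gli1 is used to mark cells with an active pathway.

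Primary astrocytes came from the cerebral cortex of normally pigmented sable ferrets on postnatal day 1 (2 libraries, ferret replicates 1 and 2) and of wild-type ICR mice on postnatal days 1 to 3 (2 libraries, mouse replicates 1 and 2). Both species were grown as mixed glia in medium with fetal bovine serum for 14 days, shaken, replated and moved to serum-free medium with heparin-binding EGF-like growth factor before RNA was taken. No Hedgehog ligand, agonist or inhibitor is named among the additions in either group. Cells of a ferret pup were spread over several flasks whereas cells of several mouse pups shared a flask, and nothing in the sources used here says that the duplicate libraries came from separate cultures, so that the p-values measure only the spread between these libraries.

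Levels are FPKM, that is, fragments counted per kilobase of exon and relative to all mapped fragments of a library, and were quantified in each species on its own gene models. Differences were taken as ferret minus mouse on the log2(FPKM + 1) scale and tested with limma for the 10204 shared genes that reached a mean of 1 FPKM in either species. Genes counted as called had p under 0.05 after Benjamini-Hochberg adjustment, the adjusted p given throughout, together with an absolute log2 difference above 1. The deposited FPKM do not give the depth of a library, and read counts were not used here. The shared genes summed to less FPKM in the ferret libraries than in the mouse libraries (227391 to 236543 against 300465 to 308122), and all tested genes together had a median log2 difference of -0.35. This median moved to -0.01 when the libraries were rescaled to the same sum and to 0.05 after quantile normalization, so each gene is best read against it. The same sum is the mean library sum here and below unless another is named. The species, the gene models and the cultures cannot be told apart in this design.

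All 9 genes stood lower in both ferret libraries than in both mouse libraries, with groups that did not overlap. The same held for 52.9% of all shared genes. Gli1 and Hhip stayed under an FPKM of 1 in both species and were not among the genes tested. Of the 7 genes tested, 5 were called lower in ferret astrocytes (Cdon, Smo, Boc, Gli2 and Gli3) and 0 were called higher, against 30.1% and 13.1% of all tested genes. An adjusted p under 0.05 alone was reached by all 7, but also by 88.6% of all tested genes in either direction, and 56.2% of the tested genes reached it with a lower ferret level. Gli2 passed the FPKM minimum only through mouse astrocytes, in which it was the higher. The median log2 difference of the 7 genes was -1.08, and that of all 9 in the fit without the minimum was -1.05. Cdon, Smo and Boc were also called lower after rescaling or quantile normalization, whereas Gli2 and Gli3 were not called after rescaling to the mean library sum or quantile normalization, which left 3 genes called. The share of higher against lower calls among all tested genes also moved, from 1336 and 3069 as deposited to 1954 and 2215 after rescaling (19.1% and 21.7% of them) and 2076 and 2090 after quantile normalization (20.3% and 20.5%). In these bulk libraries, fewer expressing cells and less RNA per cell cannot be told apart.

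**Figure D1:**
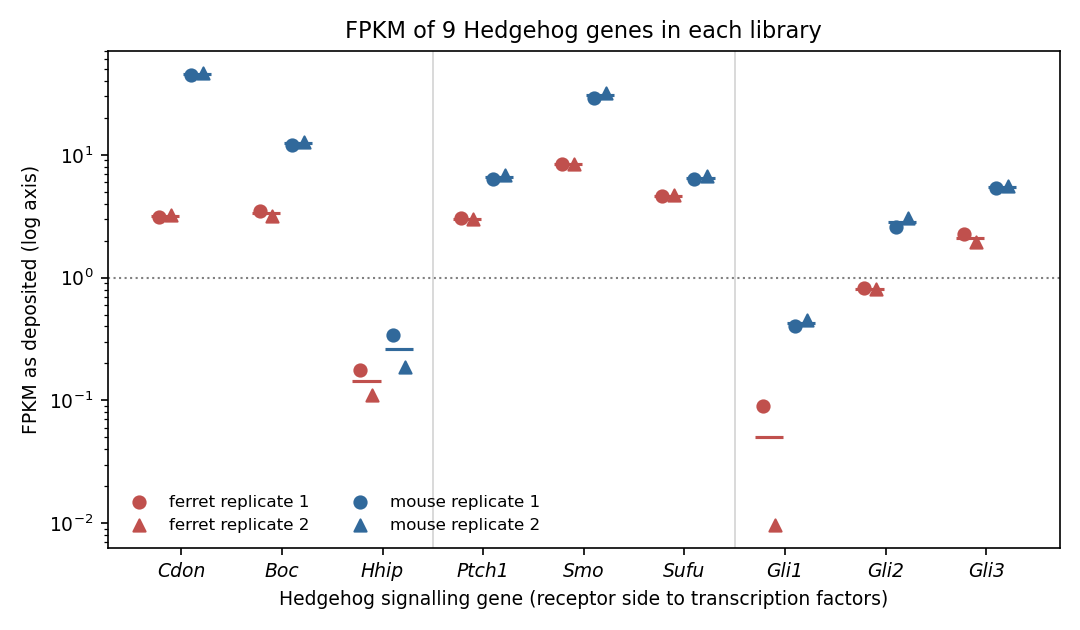
FPKM as deposited (log axis) of the 9 Hedgehog genes in the 4 libraries, with ferret libraries in red, mouse libraries in blue, circles for replicate 1, triangles for replicate 2 and horizontal bars for species means. The dotted line marks an FPKM of 1, which Gli2 crossed between the species (0.812 in ferret, 2.83 in mouse), and Cdon shows the widest gap of the tested genes (3.17 against 45.6).

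The coreceptor Cdon had the largest difference of the 7 genes tested. Cdon encodes an immunoglobulin-superfamily membrane protein that binds Hedgehog ligands and helps present them to Ptch1. Its FPKM was 3.12 and 3.23 in ferret and 45.1 and 46.1 in mouse astrocytes. The duplicates lay close together in both species, and the mean was 14.4-fold higher in mouse astrocytes (3.17 ± 0.0816 in ferret and 45.6 ± 0.762 in mouse, SD, n = 2 each). The log2 difference was -3.48 (SE 0.0645, limma adjusted p = 5.49e-11), and 2.33% of all tested genes had a difference as low or lower. It was -3.14 with the libraries rescaled to the same sum and -3.09 after quantile normalization. The mouse gene (ENSMUSG00000038119, protein coding) is at chr9:35421128-35507652 of GRCm38 on the plus strand, with 23 exonic regions.

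Boc is the paralog of Cdon and a ligand-binding coreceptor of the same family. Its FPKM was 3.51 and 3.19 in ferret and 12.1 and 12.7 in mouse astrocytes. All mouse values exceeded the ferret values by far more than the gap between duplicates, with a mean 3.70-fold higher in mouse. The log2 difference was -1.62 (SE 0.0750, limma adjusted p = 1.71e-08), and -1.29 after rescaling to the same sum. The 2 coreceptors therefore stood at similar levels in ferret astrocytes, with a ratio of Cdon to Boc of 0.888 and 1.01 in the 2 libraries, while in mouse astrocytes Cdon was the higher gene with ratios of 3.72 and 3.65. A ratio of 2 genes in the same library does not depend on how libraries are scaled, although it still carries the gene models of each species. Mouse Boc (ENSMUSG00000022687) is at chr16:44485049-44558897 on the minus strand.

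Hhip encodes a membrane glycoprotein that binds Hedgehog ligands and keeps them from Ptch1, and the gene is itself a target of the pathway. It was close to the bottom of the range in every library, at 0.178 and 0.111 FPKM in ferret and 0.339 and 0.189 in mouse astrocytes. The groups did not overlap, but the gap between the lower mouse and the higher ferret value was smaller than the spread within either species. In the fit without the FPKM minimum, in which 22.9% of 13373 genes were called lower in ferret, the log2 difference of Hhip was -0.14 (95% confidence interval -0.38 to 0.09, limma adjusted p = 0.186), and it was not called. The median of all genes in that fit was -0.11. The mouse gene (ENSMUSG00000064325) is at chr8:79965851-80058006 on the minus strand.

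Ptch1, the receptor that holds Smo inactive and at the same time a target gene of the pathway, had an FPKM of 3.06 and 2.99 in ferret and 6.31 and 6.85 in mouse astrocytes. Its mean was 2.18-fold higher in mouse astrocytes. The log2 difference of -0.91 (SE 0.0762, limma adjusted p = 1.46e-06) passed the threshold on p but not that on size, and 32.5% of all tested genes were as low or lower. With a pseudocount of 0.1 the difference was -1.10 and Ptch1 was called, and after rescaling to the same sum it was -0.60. Mouse Ptch1 (ENSMUSG00000021466) is at chr13:63508328-63573598 on the minus strand.

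Smo encodes the membrane protein that carries the signal into the cell. It had 8.37 and 8.47 FPKM in ferret and 29.2 and 32.1 FPKM in mouse astrocytes. Both mouse values were well above both ferret values, and the mean was 3.64-fold higher in mouse astrocytes (8.42 ± 0.0681 and 30.7 ± 2.02, SD, n = 2 each). The log2 difference was -1.75 (SE 0.0687, limma adjusted p = 5.54e-09) and -1.38 after rescaling to the same sum. Smo was the member with the highest FPKM in ferret astrocytes. The ratio of Smo to Ptch1 was 2.74 and 2.83 in ferret and 4.63 and 4.68 in mouse astrocytes. Mouse Smo (ENSMUSG00000001761) is at chr6:29735503-29761365 on the plus strand.

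Sufu, which binds the Gli proteins in the cytoplasm and restrains them, was the tested gene with the smallest difference. Its FPKM was 4.60 and 4.73 in ferret and 6.35 and 6.72 in mouse astrocytes. The log2 difference was -0.41 (95% confidence interval -0.58 to -0.25, limma adjusted p = 4.26e-04), close to the median of all tested genes. After rescaling to the same sum it was -0.08 (95% confidence interval -0.24 to 0.08, limma adjusted p = 0.275), and after quantile normalization -0.01 (95% confidence interval -0.17 to 0.14, limma adjusted p = 0.879). In rank, Sufu stood between the 49.1 and 50.2 percentile of the shared genes in all 4 libraries. Against this gene, Smo was 1.82 and 1.79 times as high in the ferret libraries and 4.60 and 4.78 times as high in the mouse libraries. Mouse Sufu (ENSMUSG00000025231) is at chr19:46396896-46488804 on the plus strand.

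**Figure D2:**
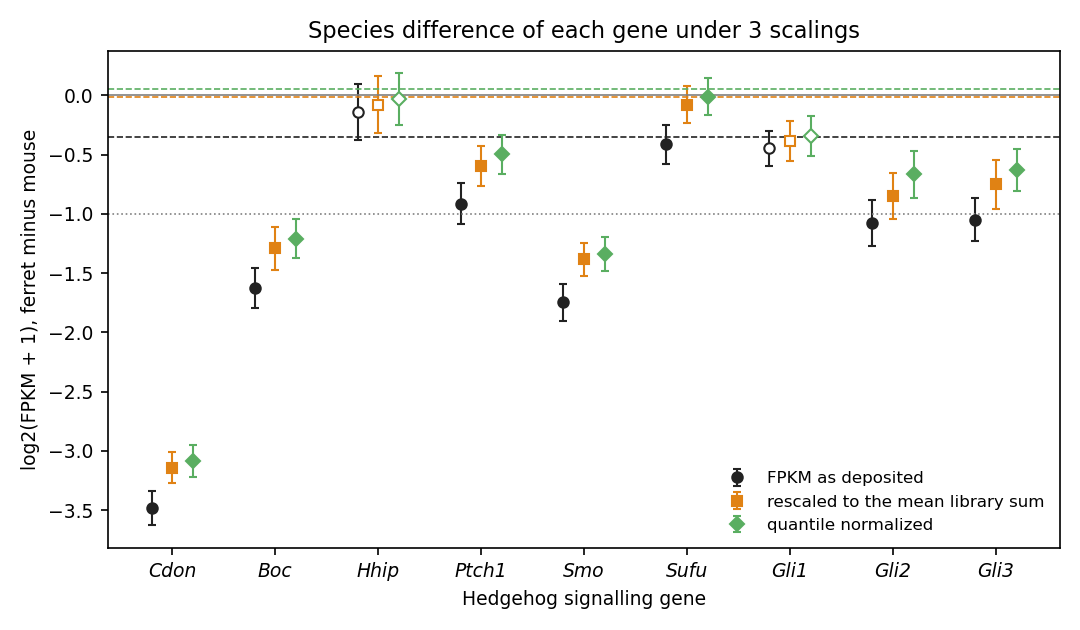
Log2(FPKM + 1) of ferret minus mouse astrocytes for each Hedgehog gene, as deposited (black circles), rescaled to the mean library sum (orange squares) and after quantile normalization (green diamonds), with 95% confidence intervals from limma. Dashed lines are the medians of all tested genes (-0.35, -0.01 and 0.05), the dotted line is a difference of -1, and open symbols (Hhip and Gli1) come from the fit without the FPKM minimum. Cdon, Boc and Smo stayed below -1 under these 3 scalings, and Sufu stayed near the median.

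The 3 Gli genes encode zinc-finger transcription factors at the end of the pathway. Gli2 had 0.821 and 0.804 FPKM in ferret and 2.60 and 3.07 in mouse astrocytes. It was the only one of the 9 genes to lie under an FPKM of 1 in both ferret libraries and above it in both mouse libraries. The log2 difference was -1.08 (SE 0.0854, limma adjusted p = 9.81e-07), and on the FPKM scale the mean was 3.49-fold higher in mouse. The pseudocount of 1 weighs on values this low, and with 0.1 the difference was -1.68. It was -0.99, short of the size needed for a call, without mouse replicate 2. After rescaling to the mean library sum it was -0.85 and Gli2 was not called. After rescaling to a sum of 1000000 it was -1.19 and Gli2 was called lower. Mouse Gli2 (ENSMUSG00000048402) is at chr1:118834132-119053619 on the minus strand.

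Gli3, the main repressor of the family, had 2.28 and 1.97 FPKM in ferret and 5.39 and 5.53 in mouse astrocytes. The mean was 2.57-fold higher in mouse astrocytes, with a log2 difference of -1.05 (SE 0.0810, limma adjusted p = 7.95e-07). The call lay at the limit of size. Without ferret replicate 2 the difference was -0.98 and after rescaling to the same sum -0.75, and Gli3 was not called in either. Gli3 exceeded Gli2 in every library, with ratios of Gli3 to Gli2 of 2.77 and 2.45 in ferret and 2.07 and 1.80 in mouse astrocytes. These ratios did not overlap between the species, but with 2 libraries in each species the smallest p of an exact permutation test is 0.333, and no test was made. Mouse Gli3 (ENSMUSG00000021318) is at chr13:15463235-15730026 on the plus strand.

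Gli1, which is both an activator and a target gene of the pathway, was the lowest of the 9 genes in ferret astrocytes. It had 0.0903 and 0.00962 FPKM in the ferret libraries, which differed 9.38-fold from each other, and 0.407 and 0.454 FPKM in the mouse libraries. Every value was under 1, and both mouse values were above both ferret values. In the fit without the FPKM minimum, the log2 difference was -0.45 (95% confidence interval -0.60 to -0.30, limma adjusted p = 0.00407) and Gli1 was not called. With a pseudocount of 0.1 in the same fit it was -1.88 (95% confidence interval -2.93 to -0.82, limma adjusted p = 0.0166) and Gli1 was called lower, so the size of this difference depends on the pseudocount. The ratio of Gli1 to its fellow target Ptch1 was 0.0295 and 0.00322 in ferret and 0.0645 and 0.0662 in mouse astrocytes, and that of Hhip to Ptch1, at 0.0581 and 0.0372 in ferret and 0.0537 and 0.0275 in mouse astrocytes, overlapped between the species. Mouse Gli1 (ENSMUSG00000025407) is at chr10:127329882-127341974 on the minus strand, and 265 bases, or 5.31%, of its exonic length also belong to the antisense gene Gm47200. The protein-coding gene Arhgap9, on the opposite strand, shares 62 bases, or 1.24%. Opposite-strand genes also share 1.96% of the exonic length of Gli3 (Gm6556) and 1.93% of that of Hhip (Gm27820). The library kit kept the strand, but whether the quantification used it is not given in the sources used here.

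The order of the levels differed between the species. In ferret astrocytes the mean FPKM fell from Smo (8.42) through Sufu (4.66), Boc (3.35), Cdon (3.17), Ptch1 (3.02), Gli3 (2.12), Gli2 (0.812) and Hhip (0.144) to Gli1 (0.0499). Boc and Cdon overlapped between libraries and could not be ordered. In mouse astrocytes it fell from Cdon (45.6) through Smo (30.7), Boc (12.4), Ptch1 (6.58), Sufu (6.54), Gli3 (5.46), Gli2 (2.83) and Gli1 (0.430) to Hhip (0.264), and Ptch1 and Sufu overlapped. The other neighbours in these orders did not overlap between the duplicates of a species. Cdon was thus the highest gene in mouse astrocytes, whereas Smo and Sufu stood above it in ferret astrocytes.

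The sum of the 9 genes was 26.0 and 25.5 FPKM in ferret and 107.8 and 113.7 FPKM in mouse astrocytes. As a share of all shared genes it was 0.0114% and 0.0108% in ferret and 0.0359% and 0.0369% in mouse astrocytes. Cdon supplied 12.0% and 12.7% of the sum in ferret and 41.8% and 40.6% in mouse astrocytes. Sufu supplied 17.7% and 18.6% in ferret and 5.89% and 5.91% in mouse astrocytes, and Smo 32.2% and 33.2% against 27.1% and 28.2%.

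**Figure D3:**
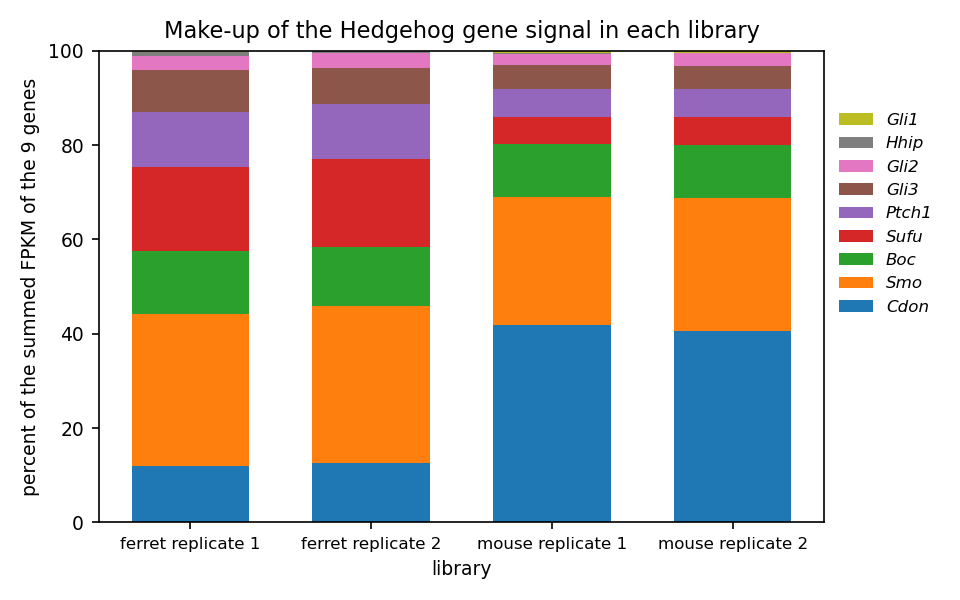
Share of each gene in the summed FPKM of the 9 Hedgehog genes, in percent, as a stacked bar for each of the 4 libraries. The Cdon share is 12.0% and 12.7% in the ferret bars and 41.8% and 40.6% in the mouse bars, and the duplicates of a species look alike.

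Ranks within a library do not change with scaling. Among the 13373 shared genes, Cdon stood at the 43.1 and 43.6 percentile in the ferret libraries and at the 89.7 percentile in both mouse libraries. Smo stood at the 62.8 and 62.6 percentile in ferret and the 83.0 and 84.3 in mouse, and Boc at the 44.9 and 43.4 in ferret and the 63.7 and 64.5 in mouse. The percentiles of Ptch1 (42.8 and 42.6 against 49.0 and 50.6), Gli3 (39.1 and 37.4 against 46.3 and 46.7) and Gli2 (30.3 and 30.2 against 35.8 and 37.6) were closer together, though ferret values were still below mouse values. Gli1 stood at 18.1 and 11.1 in ferret and at 23.3 and 23.8 in mouse. The ranks of Hhip (21.3 and 19.3 against 22.3 and 19.5) and Sufu overlapped between the species.

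**Figure D4:**
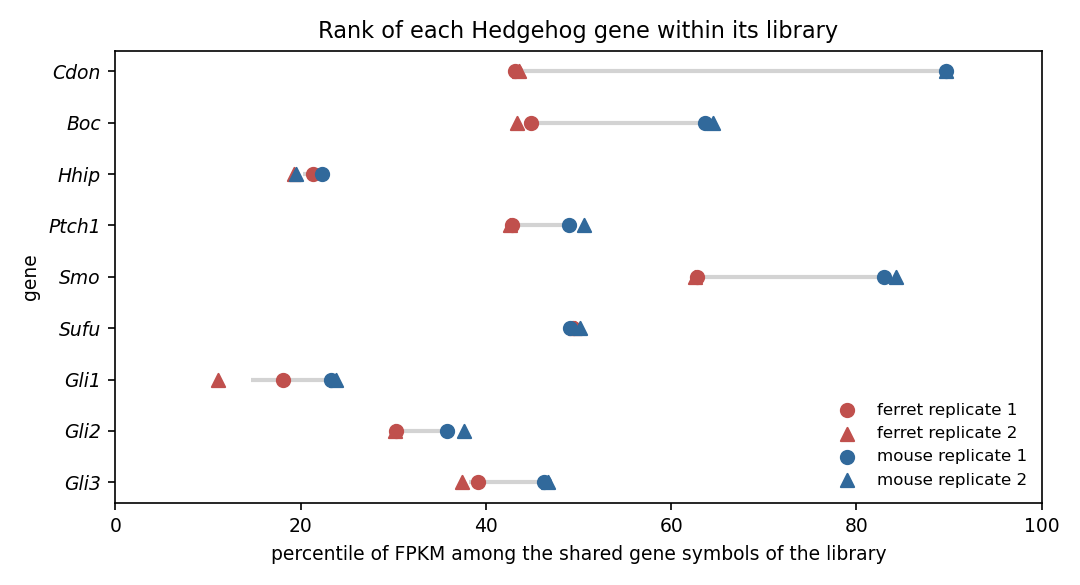
Percentile of the FPKM of each Hedgehog gene among the shared genes of its library, with ferret libraries in red, mouse libraries in blue and grey lines between species means. Cdon (43.1 and 43.6 against 89.7), Smo and Boc are far apart, and Sufu and Hhip overlap.

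Genes around these 9 were taken from lists of known pathway genes. Of the ligands, Shh (Sonic hedgehog) stood at 0.0438 and 0.0548 FPKM in mouse astrocytes, and no ferret value was found under its symbol. Ihh (Indian hedgehog) is listed at 0 in both ferret libraries and stood at 0.0619 and 0.0744 FPKM in the mouse libraries. Dhh (Desert hedgehog) was the highest of the 3 ligands in mouse astrocytes, at 0.602 and 0.632 FPKM in ferret and 0.471 and 0.517 in mouse astrocytes. Every ligand value was under an FPKM of 1. Dhh was slightly higher in ferret than in mouse astrocytes (log2 difference 0.11 in the fit without the FPKM minimum, limma adjusted p = 0.0238), below the size needed for a call. Of 8 genes for ligands and their release, 5 were tested, with 1 called higher and 2 called lower in ferret and a median log2 difference of -0.49, beside 13.1% called higher and 30.1% called lower among all tested genes. Scube1 and Scube2 passed the FPKM minimum only through ferret and Scube3 only through mouse astrocytes. Scube2, a secreted protein that helps release lipid-modified ligands, was called higher in ferret astrocytes (1.43 and 1.68 FPKM) than in mouse astrocytes (0.0537 and 0.0318 FPKM) (log2 difference 1.29, limma adjusted p = 1.83e-07). Scube3 of the same family was lower in ferret astrocytes (0.211 and 0.161 against 2.77 and 2.64, log2 difference -1.65, limma adjusted p = 1.93e-08), as was Disp1, the transporter that exports the ligands (2.14 and 2.71 against 6.84 and 6.38, log2 difference -1.16, limma adjusted p = 1.24e-06). After rescaling to the mean library sum or quantile normalization, 1 gene of this list was called lower, beside 21.7% and 20.5% of all tested genes.

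Of 6 genes listed as other receptors and coreceptors, a list that also holds the Smo regulators Mgrn1 and Mosmo, 3 were tested. Of these, 1 was called lower (33.3%), close to the 30.1% of all tested genes, and Lrp2 passed the FPKM minimum only through mouse astrocytes. After rescaling to the mean library sum or quantile normalization, 1 was still called lower. The gene called lower as deposited was Mgrn1, a ubiquitin ligase known to lower Smo at the cell surface. It stood at 11.0 and 11.9 FPKM in ferret and 36.5 and 37.1 in mouse astrocytes (log2 difference -1.60, limma adjusted p = 6.20e-09).

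Of 23 intracellular regulators, 22 were tested, with 0 called higher and 5 called lower (22.7%), beside 13.1% and 30.1% of all tested genes. Their median log2 difference was -0.38, beside -0.35 for all tested genes. The largest differences were those of Spop, the adaptor through which a ubiquitin ligase breaks down Gli2 and Gli3 (12.4 and 11.8 FPKM in ferret, 77.7 and 77.7 in mouse, log2 difference -2.59), of the beta-arrestin Arrb1 (1.33 and 1.14 against 7.76 and 6.98, -1.91), of the ciliary protein gene Iqce (2.50 and 2.84 against 12.7 and 12.1, -1.87) and of the beta-arrestin Arrb2 (5.80 and 7.56 against 18.1 and 19.1, -1.36). Each of these 4 passed with an adjusted p of at most 6.62e-07 by limma. The count of genes called lower was 4 after rescaling to the mean library sum and 3 after quantile normalization, which also called 1 higher.

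Of 29 ciliary transport genes, 26 were tested, with 1 called higher (3.85%) and 4 called lower (15.4%), shares below the 13.1% and 30.1% of all tested genes. Their median log2 difference of -0.35 was that of all tested genes. Ift46 (6.44 and 6.38 FPKM in ferret against 52.7 and 55.9 in mouse, log2 difference -2.90), Wdr35 (4.95 and 4.70 against 18.5 and 19.3, -1.77), Tulp3 (10.2 and 10.2 against 29.96 and 29.31, -1.45) and Ift74 (8.30 and 7.62 against 22.3 and 22.2, -1.37) were called lower. Ift46 and Ift74 belong to the complex that carries cargo to the tip of the cilium, Wdr35 to the one that carries it back, and Tulp3 brings receptors into the cilium. Ift80, of the same complex as Ift46, was called higher in ferret astrocytes (38.0 and 32.6 against 14.8 and 15.1, log2 difference 1.19). The adjusted p of these 5 genes was at most 2.28e-07 by limma. After rescaling to the mean library sum or quantile normalization 4 genes were called higher and 4 or 3 lower, so the balance of this list depends on the scaling.

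Of 20 other known targets, 10 were tested, with 1 called higher and 7 called lower and a median log2 difference of -1.40, beside 13.1% and 30.1% called among all tested genes. Of the 7 genes called lower, 4 (Bmp4, Prom1, Snai1 and Foxf2) passed the FPKM minimum only through mouse astrocytes, and Nkx2-2, the gene called higher, only through ferret astrocytes, so that this count and median describe the genes that passed. The largest differences were those of Bmp4, a growth factor of another pathway (0.0691 and 0.197 FPKM in ferret, 19.6 and 21.2 in mouse, log2 difference -4.24), Igfbp6, which binds insulin-like growth factor (3.05 and 2.89 against 59.9 and 60.3, -3.94), Prom1, a membrane protein of progenitor cells (0.386 and 0.287 against 9.82 and 10.9, -3.09) and Bcl2, which protects cells from apoptosis (0.939 and 1.10 against 5.10 and 5.08, -1.59). Nkx2-2, a transcription factor of the ventral neural tube and of oligodendrocyte precursors, was called higher in ferret astrocytes (10.8 and 11.6 against 0.692 and 0.808, log2 difference 2.81). The adjusted p of these 5 genes was at most 2.89e-08 by limma. These targets answer to many other signals. After rescaling to the mean library sum or quantile normalization, 5 were called lower and 1 higher, where 21.7% and 20.5% of all tested genes were called lower and 19.1% and 20.3% higher.

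**Figure D5:**
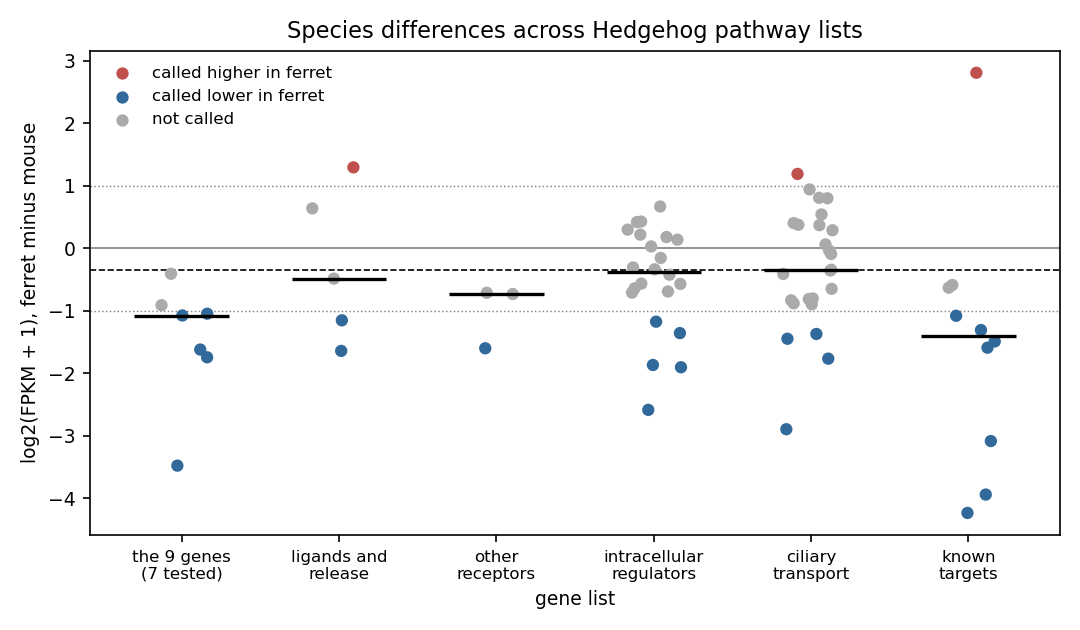
Log2(FPKM + 1) of ferret minus mouse astrocytes for each tested gene of 6 lists of Hedgehog pathway genes, with genes called higher in ferret in red, called lower in blue and others in grey (horizontal scatter has no meaning). Black bars are list medians, the dashed line is the median of all tested genes (-0.35) and dotted lines are differences of -1 and 1. The medians of regulators (-0.38) and ciliary genes (-0.35) lie on that of all genes, and those of the 7 tested Hedgehog genes (-1.08) and the known targets (-1.40) lie below it. Gli2 and 4 of the targets passed the FPKM minimum only through mouse astrocytes, and 1 target only through ferret astrocytes, so these medians describe the genes that passed.

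Markers of the labelled cell type differed in both directions. Gfap stood at 1481 and 1522 FPKM in ferret and 1429 and 1546 in mouse, Aqp4 at 24.8 and 21.8 against 201.5 and 209.9, Slc1a3 at 84.4 and 76.6 against 177 and 185, and Sox9 at 17.0 and 18.3 against 32.6 and 34.4. Of the other markers, S100b (247.4 and 243.8 against 57.3 and 63.1, called higher) and Aldoc (1619 and 1700 against 916 and 1015) stood above the mouse level, and Aldh1l1 (10.1 and 9.60 against 81.2 and 84.3) and Slc1a2 below it. Slc1a2, a glutamate transporter of astrocytes, stood under 1 FPKM in both ferret libraries, at 0.133 and 0.178 FPKM against 47.1 and 51.8. The sum of these 8 markers, led by Gfap and Aldoc, was 3484 and 3592 FPKM in ferret and 2942 and 3188 in mouse astrocytes. In ferret, 1 was called higher and 4 were called lower, with Slc1a2 among the 4 and tested only through its mouse level. Beside this count and those of the other markers below, 13.1% of all tested genes were called higher and 30.1% lower. Markers of other cells also differed between the species, and not all genes of a list went the same way. The 10 meningeal fibroblast markers, with Serpinf1 and Col3a1 the highest, summed to 130.0 and 115.4 FPKM in ferret and 1492 and 1472 in mouse, and 8 of 9 tested were called lower in ferret, 3 of them tested only through their mouse level. The other tested gene, Pdgfra, stood higher in ferret (3.07 and 3.23 against 1.64 and 1.23) and was not called. The 9 microglial markers compared, with Tyrobp and C1qc the highest, summed to 6.95 and 5.93 FPKM in ferret and 498.5 and 485.0 in mouse, and all 9 were called lower, 7 of them tested only through their mouse level, with Cx3cr1 listed at 0 in both ferret libraries. The 8 oligodendrocyte lineage markers with values in both species, led by Cnp and Mbp, summed to 165.9 and 184.6 in ferret and 67.4 and 67.7 in mouse. Of these, 3 of 7 tested were called higher, and 1 of the 3, Sox10, was tested only through its ferret level. By adjusted p under 0.05 alone (limma), 5 of the 7 stood higher in ferret and 2 lower. These 2 were Olig2 (4.92 and 5.18 against 9.62 and 9.80) and Cspg4 (1.04 and 1.16 against 2.00 and 1.81). That p was reached by 88.6% of all tested genes. Olig1, for which no ferret value was found by symbol, was left out of the oligodendrocyte lineage sum. It stood at 107.4 and 116.9 FPKM in mouse, above the mouse sum of the other 8. The 6 neuronal markers with values in both species, led by Map2 and Syt1, summed to 30.8 and 31.6 in ferret and 32.0 and 33.3 in mouse. Of these, 3 of 4 tested were called higher, 2 of them (Nefl and Dcx) tested only through their ferret level. The other tested gene, Map2, stood lower in ferret (18.8 and 19.0 against 30.4 and 31.3) and was not called. Stmn2, also without a ferret value under its symbol, was left out of the neuronal sum and stood at 123.6 and 127.4 FPKM in mouse. The part of these cells in the levels of Cdon, Boc, Smo and the other Hedgehog genes was not tested.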

How the data were processed

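RNA-seq libraries (polyA-selected, stranded kit) were made in duplicate from cultured ferret and mouse astrocytes. The authors aligned the reads with STAR 2.7.0f to MusPutFur1.0 or GRCm38 and deposited FPKM per gene from Cufflinks 2.2.1 (versions per the labels and methods), scaled to the mapped fragments and exon length and not between species. Depth was not read from these values, and read counts were not used here.

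Symbols were joined in upper case, and the highest species mean was kept where a symbol had several values (7 ferret and 13 mouse symbols, no Hedgehog member). The species were compared across all genes with limma 3.58.1 in R 4.3.3 (empirical Bayes with trend, two-sided, Benjamini-Hochberg adjustment) on log2(FPKM + 1) where either species had a mean of 1 FPKM or more. On simulated data for this comparison (10204 genes, 200 changed by a log2 value of 1.5), 193 were called and 0 unchanged genes. The simulated libraries had the spread of duplicates but no shift over all genes and no unequal gene models. They therefore do not measure false calls between the species.

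The members, gene lists and tests were chosen with earlier results of these data known. Named were all 9 members, the ligands, up to 4 called genes of each list in each direction and the leading markers. Ratios other than Gli3 to Gli2, Gli1 to Ptch1 and Hhip to Ptch1 were chosen after their values were seen. Mouse positions are from GENCODE M21 on GRCm38, an annotation release other than the authors' own. A planned search for a Gli motif in promoters was not made, since no promoter sequence was used here. Alternatives tried were another pseudocount, no FPKM minimum, 3 scalings, summed values of a symbol, the replicate number as a block and each library left out.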

Additional observations from a re-analysis of the deposited data

How the results depend on the processing

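The log2 differences of all 9 Hedgehog genes stayed negative under each alternative that was run for them, and Cdon, Smo and Boc were called under all 11. Sufu no longer reached an adjusted p under 0.05 after rescaling to a sum of 1000000 (-0.09, limma adjusted p = 0.286). Nor did it with the mean library sum (-0.08, limma adjusted p = 0.275) or quantile normalization (-0.01, limma adjusted p = 0.879). Hhip already missed it in the fit without the FPKM minimum (-0.14, limma adjusted p = 0.186). After quantile normalization in that fit, Hhip stood at -0.03 (limma adjusted p = 0.707). With FPKM rescaled to the mean library sum, and again after quantile normalization, 3 members were called instead of 5, and the counts over all genes became 1954 higher and 2215 lower, and 2076 higher and 2090 lower, against 1336 higher and 3069 lower as deposited. After rescaling to a sum of 1000000, 2197 genes were called higher and 2536 lower, and 4 members were called, with Gli2 (-1.19) among them. The median of all genes moved from -0.35 to -0.01 with either rescaling and to 0.05 with quantile normalization. Gli3 was not called after rescaling to 1000000 (-0.90) or without ferret replicate 2 (-0.98), nor Gli2 without mouse replicate 2 (-0.99). With each library left out in turn, 4 to 5 members were called.

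The replicate numbers are shared by both species, but the labels do not say whether equal-numbered libraries were cultured or prepared together. Deviations of equal-numbered libraries from their species means had a correlation of 0.00995 across 10204 genes. With the replicate block, 5 members, 1342 genes higher and 3072 genes lower were called, and no call of a member changed, although the adjusted p of Hhip without the FPKM minimum went from 0.186 to 0.0499 (limma).

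The alternatives for Gli1 and Hhip without the FPKM minimum were added after seeing the data. Gli1 was called only with a pseudocount of 0.1 (-1.88), and the log2 difference of Hhip ranged from -0.56 to -0.03, with 0 calls. FPKM without read counts, gene models of unequal completeness and 2 libraries a species limit all values, those of Gli1 and Hhip most.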

Other observations

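Some pathway genes had mouse values only, and were chosen for mention after their values were seen. Gas1, a membrane coreceptor that acts beside Cdon and Boc, stood at 28.2 and 29.3 FPKM in the mouse libraries, above Boc and close to Smo. Ccnd2, a cyclin and known target, stood at 164.9 and 168.7 FPKM, and Mosmo, which lowers Smo at the cell surface, at 12.8 and 14.0 FPKM. No ferret value was found under the symbols of these 3 genes, so the species were not compared for them.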
